A study of Mus musculus with 4 samples.

Results

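The DNA replication machinery was followed as 52 genes chosen by name, from the complexes that mark origins to the enzymes that supply nucleotides and package the copied DNA. All 52 had an entry of their own among the 23275 entries of the deposited table, and all 52 belonged to the 12683 entries that the authors tested. The RNA came from B220+CD43+ cells, an early B-lineage phenotype, sorted from bone marrow of C57BL/6 mice at 8 weeks of age. In 2 libraries the cells came from Hdac3F/-Mb1cre+/- mice, called Hdac3-deleted here, which carry 1 conditional and 1 null allele of the histone deacetylase gene Hdac3. In the other 2 libraries the cells came from Hdac3+/+Mb1cre+/- mice, called wild-type, so all mice carried the same cre allele, which is active in the B lineage. Whether any other cells in the sort kept the conditional allele was not measured. By genotype, such cells of Hdac3-deleted mice carry the null allele as well. Each library held cells pooled from 2 mice, and the labels do not say how the pools were matched. The deposited level of a gene is 1 value per genotype in FPKM, fragment counts scaled to transcript length and library depth, so no spread between libraries can be given and levels may be compared between genes per length. Each p-value and q-value below is the authors' own, from a model fitted to 2 libraries of each genotype.

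A cell licenses its origins in G1, when the origin recognition complex with Cdc6 and Cdt1 loads the MCM2-7 helicase on DNA, and it fires them in S phase, when Cdc45, the GINS complex and Mcm10 turn the loaded helicase into a moving fork. Polymerase alpha-primase then starts each strand, the clamp loader RFC places the sliding clamp PCNA, and polymerases delta and epsilon extend the strands. Most of these genes are transcribed at the G1 to S transition under E2F factors. In marrow, early B-lineage cells divide in bursts around heavy chain rearrangement and stop dividing to recombine.

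Hdac3 was at 22 FPKM in Hdac3-deleted cells and at 46.8 FPKM in wild-type cells, or 47.1% of the wild-type level, in the direction of the label (authors' deposited table, Cuffdiff q = 0.0016). B-lineage markers were abundant in both genotypes, and 4 of 8 were called higher in Hdac3-deleted cells, with summed levels of 2786 FPKM in Hdac3-deleted and 1878 FPKM in wild-type cells. Vpreb1, a surrogate light chain gene, was at 327 FPKM in Hdac3-deleted and 208 FPKM in wild-type cells, and the adaptor gene Blnk at 369.5 FPKM in Hdac3-deleted and 220.1 FPKM in wild-type cells. The 8 plasmacytoid dendritic cell markers summed to 2855 FPKM in Hdac3-deleted and 2152 FPKM in wild-type cells, with Cd209d called higher. The 10 neutrophil and myeloid markers summed to 2561 FPKM in Hdac3-deleted and 10374 FPKM in wild-type cells, with 7 called lower. S100a8, a calcium-binding protein gene of neutrophils, was at 1172 FPKM in Hdac3-deleted and 4815 FPKM in wild-type cells, and the granule protein gene Ltf at 50.9 FPKM in Hdac3-deleted and 218 FPKM in wild-type cells. None of these markers was at 0. The 6 T and NK markers summed to 348.5 FPKM in Hdac3-deleted and 318.6 FPKM in wild-type cells with no call, and the 4 erythroid markers found in the table to 27.2 FPKM in Hdac3-deleted and 55.7 FPKM in wild-type cells, with Car2 called lower. Over all tested entries, 4.14% were called lower and 2.81% higher. Fewer cells of a type and less RNA per cell cannot be told apart in these bulk samples, and the part of these marker shifts in the results below was not tested.

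The replication machinery had lower values in Hdac3-deleted cells throughout nearly all of its complexes, and the differences were small. Of 52 genes, 51, or 98.1%, had a lower value in Hdac3-deleted than in wild-type cells, against 46.5% of tested entries with a finite fold change. Of the 51, 10 passed the authors' test at a q-value under 0.05. These 10 were Mcm10, Pole2, Rfc3, Gmnn, Rfc5, Rrm2, Dut, Rpa3, Mcm5 and Pola1, and they fell by 1.5 to 1.71-fold. No gene of the 52 was called higher. At a stricter q under 0.01, 4 of the 10 stayed below the threshold, namely Mcm10, Rfc5, Pole2 and Rfc3, with 2.72% of all tested entries called lower. With a normal p-value taken from the authors' test statistic and adjusted over all tested entries, 3 were called, namely Rpa3, Gmnn and Pole2, with 2.64% of all tested entries. The 10 calls are 19.2% of the 52, against 4.14% of all tested entries called lower and 2.81% called higher, and against 3.35% called lower among the 9025 tested entries with a mean of at least 5 FPKM. On the log2 scale the 52 genes had a median fold change of -0.39, with the middle 50% between -0.59 and -0.22, while the median of all tested entries was 0.03 with the middle 50% between -0.19 and 0.24. A log2 fold change of -0.2 or less was found for 42 of the 52 genes, or 80.8%, and for 24.4% of all tested entries. Summed over the 52 genes, the level was 2985 FPKM in Hdac3-deleted and 3973 FPKM in wild-type cells, or 0.525% and 0.68% of all FPKM of that genotype.

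**Figure D1:**
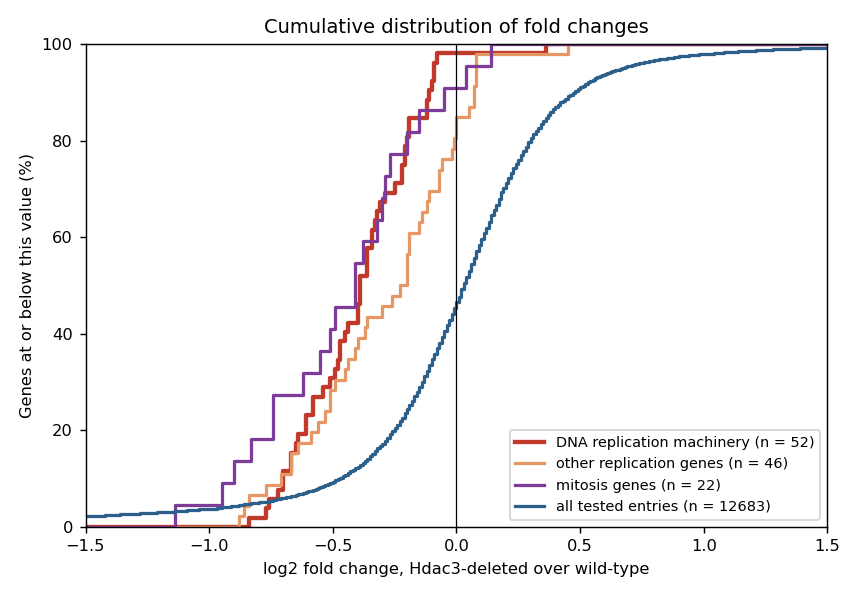
Cumulative percentage of genes (vertical axis) at or below each log2 fold change of Hdac3-deleted over wild-type cells (horizontal axis), for the 52 replication genes, 46 further replication genes, 22 mitosis genes and all 12683 tested entries. From -0.76 upward the curve of the 52 genes lies left of that of all tested entries, and it reaches 98.1% before 0. At -0.85 it is still at 0%, while 4.7% of all tested entries lie at or below that value.

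The sizes of the fold changes and the calls did not follow each other throughout. At q-values between 0.05 and 0.10 lay Mcm7 (q = 0.0506), Gins1 (q = 0.0523), Cdt1 (q = 0.0626) and Rpa2 (q = 0.0891), and 13 of the 42 genes without a call had an unadjusted Cuffdiff p under 0.05. With the called genes this held for 23 of the 52, all lower in Hdac3-deleted cells. Over all 12683 tested entries it held for 2170, of which 1135 were lower. Rfc4 had the largest fold change of all 52 genes, at 36.3 FPKM in Hdac3-deleted and 65.3 FPKM in wild-type cells, yet the authors' test statistic was -0.78 and q = 0.644. Gins2, at 25.8 FPKM in Hdac3-deleted and 40.6 FPKM in wild-type cells, had a statistic of -0.77 and q = 0.668. For comparison, Mcm10 reached a statistic of -2.74 with a log2 fold change of -0.77. Rfc4 shares its locus in the table with the translation factor gene Eif4a2, at 203.7 FPKM in Hdac3-deleted and 181.2 FPKM in wild-type cells. Gins2 shares its locus with Gse1, at 35.3 FPKM in Hdac3-deleted and 27.2 FPKM in wild-type cells. In all, 10 of the 52 genes share a locus with another entry, as do 2478 of the 12683 tested entries. None of the 10 genes was called. Of all 12683 tested entries 525, or 4.14%, were called lower, and of the 10205 that share no locus 479, or 4.69%. Whether sharing a locus bears on the calls was not tested.

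Since many of these genes are known E2F targets, promoter windows from RefSeq (build GRCm38.p6, the assembly of mm10) were searched on both strands, from 250 bases before to 50 bases after each gene start. A window was found for 43 of the 52 genes and for 9 of the 10 called genes, all but Gmnn. An E2F-like match, meaning TTTCCCGC, TTTGGCGC, TTTCGCGC or TTTGCCGC, stood in 14 of the 43 windows, or 32.6%, and in 2.26% of all 32851 windows. A CCAAT match stood in 24 of the 43, or 55.8%, and in 37.4% of all windows. TTTGAA, the core of the CHR element of mitotic promoters, stood in 3 of the 43, or 6.98%, and in 17.9% of all windows. The 43 are a single window per gene, the one nearest to the deposited start, while the 32851 count every window given. These sets were not matched for expression or base composition. The E2F-like forms can overlap each other, since TTTCGCGC read on 1 strand and TTTGGCGC on the other share 4 letters. The 14 genes with an E2F-like match had a median log2 fold change of -0.44 and the 29 genes without one had -0.40, so the medians lay close together. Genes without an exact match may still be E2F targets, so this split cannot separate targets from other genes. The window's gene start lay within 50 bases of the deposited start for 36 of the 43. Among the 9 called genes with a window, 4 had an E2F-like match, namely Pole2, Rfc3, Mcm5 and Pola1. A match is a stretch of letters and not a measured binding site.

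The windows of these 4 genes follow, with that of Mcm6, which has 3 E2F-like matches, more than any other of the 43 windows, and one of the smallest fold changes. Each runs 5′ to 3′ in the direction of its gene, from 250 bases before the RefSeq start through the first 30 bases after it. The start equals that of the deposited entry for Pole2, Rfc3 and Pola1, but lies 19 bases upstream of it for Mcm5 and 49 bases upstream for Mcm6, and in those 2 genes the 30 bases were not found in a GENCODE transcript. Capitals mark E2F-like matches and CCAAT matches on either strand, so a CCAAT on the opposite strand reads ATTGG.
Pole2 (chr12:69228161-69228440, minus strand): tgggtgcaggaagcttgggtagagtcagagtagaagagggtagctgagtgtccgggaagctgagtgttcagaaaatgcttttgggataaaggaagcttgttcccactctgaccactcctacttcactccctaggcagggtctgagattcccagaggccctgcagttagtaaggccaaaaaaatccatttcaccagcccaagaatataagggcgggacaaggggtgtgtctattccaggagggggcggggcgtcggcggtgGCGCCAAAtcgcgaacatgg
Rfc3 (chr5:151651179-151651458, minus strand): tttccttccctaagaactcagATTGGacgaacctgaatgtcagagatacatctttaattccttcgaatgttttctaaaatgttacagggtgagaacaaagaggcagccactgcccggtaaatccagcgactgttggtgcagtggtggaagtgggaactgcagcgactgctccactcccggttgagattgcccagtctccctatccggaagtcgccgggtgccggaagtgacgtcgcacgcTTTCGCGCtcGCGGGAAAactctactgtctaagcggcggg
Mcm5 (chr8:75109259-75109538, plus strand): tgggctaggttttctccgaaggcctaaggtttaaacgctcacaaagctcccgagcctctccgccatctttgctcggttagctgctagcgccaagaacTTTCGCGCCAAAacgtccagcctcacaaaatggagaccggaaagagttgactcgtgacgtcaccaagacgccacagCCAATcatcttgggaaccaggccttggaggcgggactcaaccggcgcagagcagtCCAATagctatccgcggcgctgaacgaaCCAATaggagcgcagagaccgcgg
Pola1 (chrX:93632126-93632405, minus strand): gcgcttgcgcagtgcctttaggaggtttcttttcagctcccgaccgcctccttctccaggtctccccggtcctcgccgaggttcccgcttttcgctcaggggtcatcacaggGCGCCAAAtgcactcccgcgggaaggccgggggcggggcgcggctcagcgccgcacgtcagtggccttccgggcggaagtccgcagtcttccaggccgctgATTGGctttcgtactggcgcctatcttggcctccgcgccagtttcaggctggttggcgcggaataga
Mcm6 (chr1:128359676-128359955, minus strand): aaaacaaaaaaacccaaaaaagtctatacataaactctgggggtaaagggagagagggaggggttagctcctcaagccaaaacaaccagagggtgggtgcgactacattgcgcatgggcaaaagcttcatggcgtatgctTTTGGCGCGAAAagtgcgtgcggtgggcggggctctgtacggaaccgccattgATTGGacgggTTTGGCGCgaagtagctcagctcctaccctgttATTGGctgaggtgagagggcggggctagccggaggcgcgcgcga

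The match in Pole2 lies 10 bases after the RefSeq start base, counted as 0, and the pair in Rfc3 lies at -10 and 0 relative to it. In Mcm5 the matches at -153 and -149 overlap and form 1 stretch, and 3 CCAAT matches follow at -77, -22 and 6. Pola1 has its match at -138 and a CCAAT match at -37. Mcm6 has overlapping matches at -110 and -106 and another at -47, and its level was 169.7 FPKM in Hdac3-deleted and 181.0 FPKM in wild-type cells (q = 0.914).

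**Figure D2:**
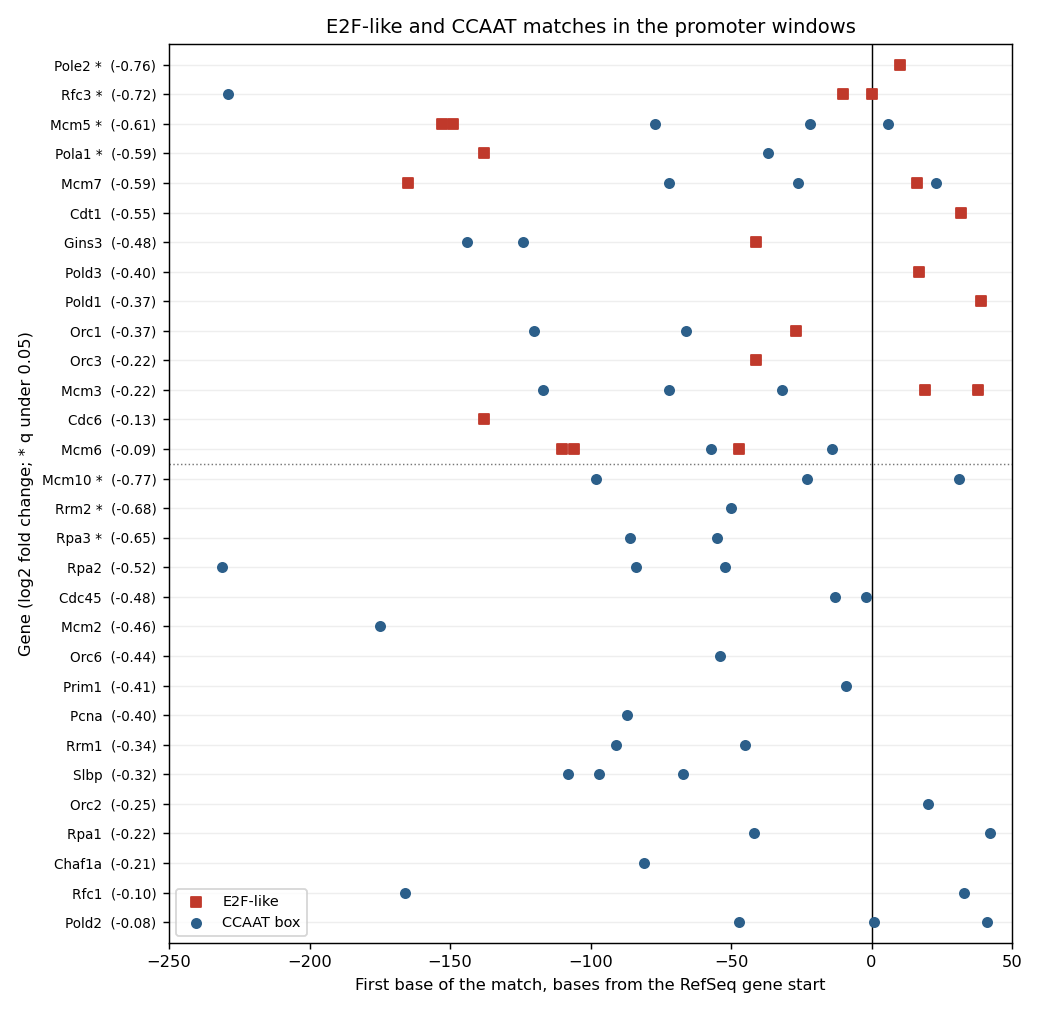
First base of each E2F-like match (squares) and CCAAT match (circles) in the RefSeq promoter windows, in bases from the gene start (horizontal axis), for every gene with at least 1 of them. Genes with an E2F-like match stand above the dotted line, ordered by log2 fold change, which is printed beside the name, and they run from -0.76 for Pole2 to -0.09 for Mcm6.

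The origin recognition complex, which marks the sites where replication can begin, had no called gene among its 6 subunits. Its median log2 fold change was -0.31, and all 6 lay between -0.44 and -0.19. The largest ATPase subunit, Orc1, was the least abundant gene of the 52, at 5.63 FPKM in Hdac3-deleted and 7.28 FPKM in wild-type cells. Orc6 was the most abundant subunit, at 32.8 FPKM in Hdac3-deleted and 44.6 FPKM in wild-type cells (q = 0.182). Orc2 was at 24.9 FPKM in Hdac3-deleted and 29.7 FPKM in wild-type cells, and Orc3 at 15.7 FPKM in Hdac3-deleted and 18.3 FPKM in wild-type cells. Orc4 was at 24.6 FPKM in Hdac3-deleted and 28.1 FPKM in wild-type cells, and Orc5 at 17.5 FPKM in Hdac3-deleted and 23.0 FPKM in wild-type cells. The order of the 6 levels was the same in both genotypes, and the most abundant stood 5.81-fold above the least in Hdac3-deleted and 6.12-fold in wild-type cells.

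Among the licensing factors, the inhibitor fell and the loaders were not called. Gmnn encodes geminin, which binds Cdt1 and blocks renewed licensing once S phase has begun, and it lies on chromosome 13 from 24751845 to 24761937. Gmnn was at 53.7 FPKM in Hdac3-deleted and 87.7 FPKM in wild-type cells, a 1.63-fold decrease (Cuffdiff q = 0.0122). Its target Cdt1 was at 29.6 FPKM in Hdac3-deleted and 43.2 FPKM in wild-type cells, just outside the threshold. Geminin transcripts exceeded those of Cdt1 by 1.81-fold in Hdac3-deleted and 2.03-fold in wild-type cells. Cdc6, the ATPase that joins the origin recognition complex to load the helicase, was at 17.4 FPKM in Hdac3-deleted and 19.0 FPKM in wild-type cells (q = 0.844).

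The MCM2-7 subunits form a ring of 1 copy of each protein, and their transcripts differed in both level and fold change. Mcm5, on chromosome 8 from 75109528 to 75128439, was the called subunit, at 72.4 FPKM in Hdac3-deleted and 110.8 FPKM in wild-type cells (1.53-fold, Cuffdiff q = 0.0444). Mcm7 had nearly the same log2 fold change as Mcm5, -0.59 against -0.61, at 119.8 FPKM in Hdac3-deleted and 179.8 FPKM in wild-type cells, and missed the threshold. Mcm2 was at 67.9 FPKM in Hdac3-deleted and 93.3 FPKM in wild-type cells. Mcm4 was at 82.8 FPKM in Hdac3-deleted and 107.0 FPKM in wild-type cells. Mcm3, at 103.2 FPKM in Hdac3-deleted and 119.8 FPKM in wild-type cells, and Mcm6 had the smallest fold changes of the ring. The most abundant subunit stood 2.50-fold above the least in Hdac3-deleted and 1.94-fold in wild-type cells, with Mcm6 at the top and Mcm2 at the bottom in both.

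Of the 6 genes that turn the loaded ring into an active helicase, Mcm10 fell, and the group's median log2 fold change was -0.54. Mcm10, a scaffold needed for origin firing, lies on chromosome 2 from 4990724 to 5012791. Its level was 13.0 FPKM in Hdac3-deleted and 22.2 FPKM in wild-type cells, the largest decrease among the called genes at 1.71-fold (Cuffdiff q = 0.0016). Cdc45, which joins MCM2-7 and GINS in the active helicase, was at 32.2 FPKM in Hdac3-deleted and 44.9 FPKM in wild-type cells (q = 0.134). Of the GINS subunits, Gins1 was at 23.8 FPKM in Hdac3-deleted and 36.3 FPKM in wild-type cells, and Gins3 at 9.54 FPKM in Hdac3-deleted and 13.3 FPKM in wild-type cells (q = 0.195). Gins4 was at 28.5 FPKM in Hdac3-deleted and 32.5 FPKM in wild-type cells (q = 0.736), a smaller difference than in the other 3 subunits of this complex.

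**Figure D3:**
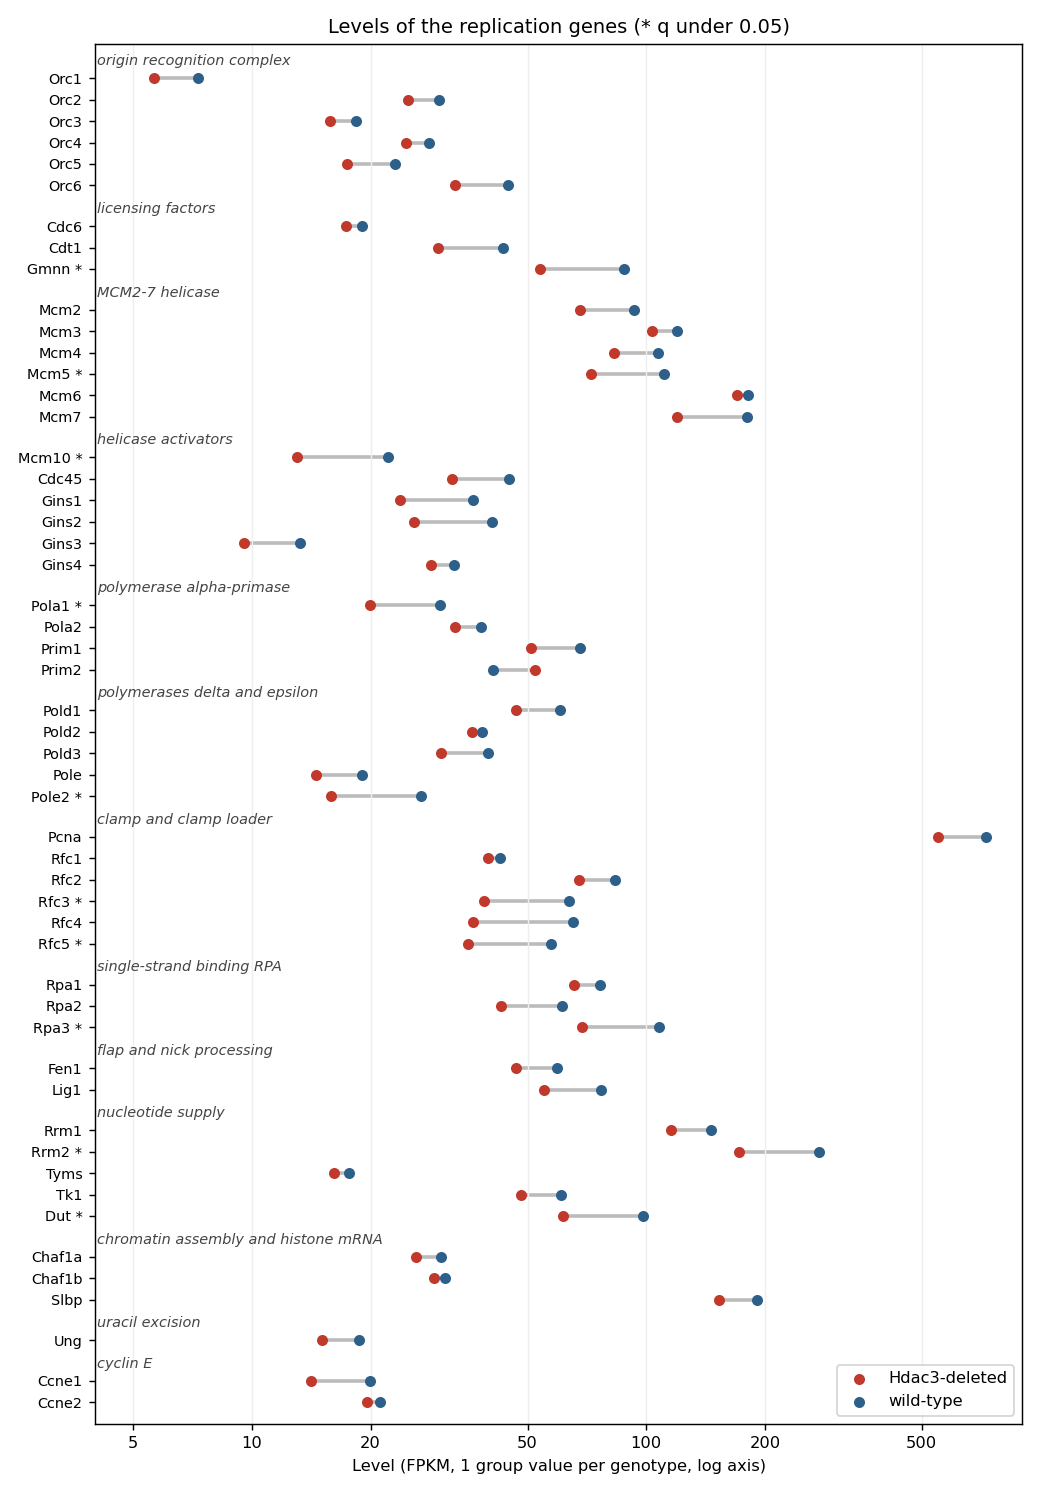
Level of each replication gene in FPKM (horizontal log axis) in Hdac3-deleted (red) and wild-type cells (blue), 1 value per genotype, grouped by role, with called genes starred. Every red point lies left of its blue point except for Prim2, and levels run from 5.63 FPKM for Orc1 to 726 FPKM for Pcna.

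Polymerase alpha-primase held the called gene Pola1 and the one gene with a higher value in Hdac3-deleted cells, Prim2. Pola1, the catalytic subunit that extends each primer, lies on the X chromosome from 93304766 to 93632155. Its level was 19.96 FPKM in Hdac3-deleted and 29.97 FPKM in wild-type cells (1.5-fold, Cuffdiff q = 0.0449). Its accessory subunit Pola2 was at 32.8 FPKM in Hdac3-deleted and 38.1 FPKM in wild-type cells. The primase catalytic subunit Prim1 was at 51.1 FPKM in Hdac3-deleted and 67.8 FPKM in wild-type cells (q = 0.241). The large primase subunit Prim2 was at 52.3 FPKM in Hdac3-deleted and 41.0 FPKM in wild-type cells, a log2 fold change of 0.35 that did not pass the test (q = 0.36). Whether the Prim2 difference departs from that of Prim1 was not tested.

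For the polymerases that copy most of the genome, the call fell on the second subunit of polymerase epsilon. Pole2, on chromosome 12 from 69201779 to 69228190, was at 15.9 FPKM in Hdac3-deleted and 26.9 FPKM in wild-type cells (1.70-fold, Cuffdiff q = 0.00756). The catalytic subunit Pole was at 14.5 FPKM in Hdac3-deleted and 19.0 FPKM in wild-type cells (q = 0.274). Of polymerase delta, the catalytic subunit Pold1 was at 46.8 FPKM in Hdac3-deleted and 60.5 FPKM in wild-type cells, Pold3 at 30.2 FPKM in Hdac3-deleted and 39.8 FPKM in wild-type cells, and Pold2 at 36.2 FPKM in Hdac3-deleted and 38.4 FPKM in wild-type cells. None of the 3 delta subunits was called, and Pold2 had the smallest fold change of all genes with a lower value, -0.08.

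The clamp and its loader gave 2 called genes, both small subunits of the loader. Rfc3, on chromosome 5 from 151642824 to 151651208, was at 38.8 FPKM in Hdac3-deleted and 63.9 FPKM in wild-type cells (1.65-fold, Cuffdiff q = 0.00855). Rfc5, on the same chromosome from 117379145 to 117389023, was at 35.3 FPKM in Hdac3-deleted and 57.3 FPKM in wild-type cells (1.63-fold, q = 0.0053). Together with Rfc4, which was not called (q = 0.644), Rfc3 and Rfc5 had log2 fold changes from -0.85 to -0.70. Rfc2, also a small subunit, was at 67.6 FPKM in Hdac3-deleted and 83.2 FPKM in wild-type cells. Its log2 fold change was -0.30, without a call (q = 0.484). The large subunit Rfc1 was at 39.6 FPKM in Hdac3-deleted and 42.5 FPKM in wild-type cells (q = 0.896). Pcna, the sliding clamp, was the most abundant of the 52 genes in both genotypes, at 549 FPKM in Hdac3-deleted and 726 FPKM in wild-type cells, and was not called (q = 0.36). The clamp alone made up much of the summed level of this group, which was 766 FPKM in Hdac3-deleted and 1039 FPKM in wild-type cells.

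Single-strand DNA at the fork is covered by RPA, a complex of 3 subunits. Its smallest subunit gene, Rpa3, on chromosome 6 from 8255936 to 8259141, was at 68.9 FPKM in Hdac3-deleted and 108.0 FPKM in wild-type cells (1.57-fold, Cuffdiff q = 0.0278). Rpa2 was at 42.8 FPKM in Hdac3-deleted and 61.3 FPKM in wild-type cells, and Rpa1, the largest subunit, at 65.5 FPKM in Hdac3-deleted and 76.4 FPKM in wild-type cells (q = 0.653). Of the enzymes that finish the lagging strand, the flap nuclease gene Fen1 was at 46.7 FPKM in Hdac3-deleted and 59.4 FPKM in wild-type cells. The ligase gene Lig1 was at 55.1 FPKM in Hdac3-deleted and 76.9 FPKM in wild-type cells. Neither was called, with q = 0.358 for Fen1 and q = 0.159 for Lig1.

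**Figure D4:**
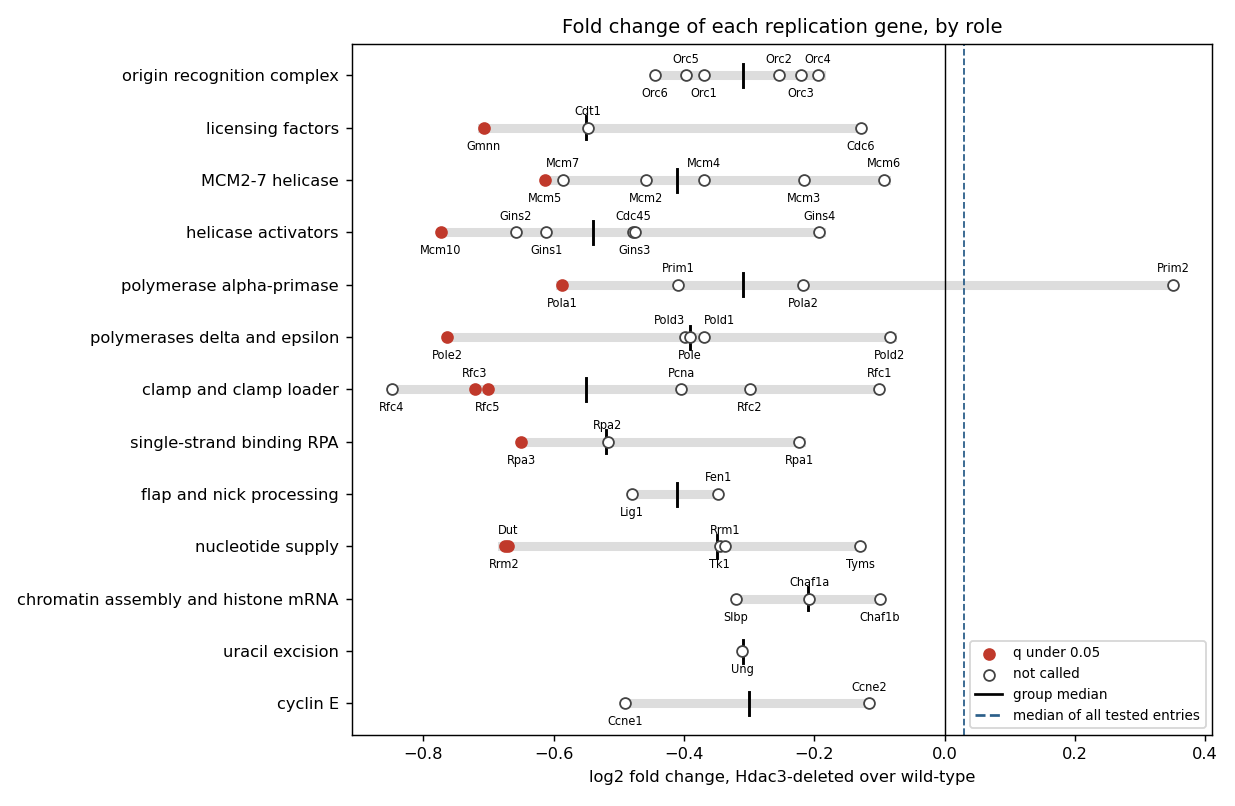
log2 fold change of Hdac3-deleted over wild-type cells (horizontal axis) for each of the 52 genes, by role, with called genes filled, the group median as a black bar and the range as a grey band. All 13 group medians lie left of the dashed median of all tested entries at 0.03, from -0.55 for the clamp and clamp loader and the licensing factors to -0.21 for chromatin assembly and histone mRNA.

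Nucleotide supply contributed 2 called genes of 5. Rrm2, the subunit of ribonucleotide reductase whose level follows S phase, lies on chromosome 12 from 24708254 to 24714146. It was the most abundant called gene, at 172.0 FPKM in Hdac3-deleted and 274.7 FPKM in wild-type cells (1.6-fold, Cuffdiff q = 0.0312). Its partner Rrm1 was at 115.6 FPKM in Hdac3-deleted and 146.0 FPKM in wild-type cells (q = 0.453), so the ratio of Rrm2 to Rrm1 was 1.49 in Hdac3-deleted and 1.88 in wild-type cells. Dut, the dUTPase that keeps uracil out of DNA, lies on chromosome 2 from 125247248 to 125259049. Its level was 61.7 FPKM in Hdac3-deleted and 98.2 FPKM in wild-type cells (1.59-fold, Cuffdiff q = 0.0154). Ung, the glycosylase that removes uracil from DNA, was at 15.1 FPKM in Hdac3-deleted and 18.7 FPKM in wild-type cells (q = 0.490). The thymidine kinase gene Tk1 was at 48.0 FPKM in Hdac3-deleted and 61.0 FPKM in wild-type cells, and the thymidylate synthase gene Tyms at 16.1 FPKM in Hdac3-deleted and 17.7 FPKM in wild-type cells, neither of them called.

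No gene of chromatin assembly or of cyclin E was called. Chaf1a and Chaf1b, subunits of the factor that places histones behind the fork, were at 26.1 and 28.9 FPKM in Hdac3-deleted cells and at 30.1 and 31.0 FPKM in wild-type cells. Slbp, which binds the stem loop of histone mRNAs, was at 152.9 FPKM in Hdac3-deleted and 190.9 FPKM in wild-type cells (q = 0.435). The cyclin E genes, which drive entry into S phase, had unequal values. Ccne1 was at 14.2 FPKM in Hdac3-deleted and 19.9 FPKM in wild-type cells (q = 0.148), and Ccne2 at 19.5 FPKM in Hdac3-deleted and 21.2 FPKM in wild-type cells (q = 0.947). Ccne2 shares its locus with another entry, and without it the median of this pair is the -0.49 of Ccne1, against -0.30 for both.

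Of 46 further replication genes outside the 52, 9, or 19.6%, were called lower and none higher, against 4.14% and 2.81% of all tested entries. A lower value in Hdac3-deleted cells was found for 39, or 84.8%, against 46.5% of tested entries with a finite fold change. The 46 genes had a median log2 fold change of -0.22. Cdc7 and Dbf4 encode the kinase and its activator that phosphorylate the loaded helicase, and both fell. Cdc7 was at 14.3 FPKM in Hdac3-deleted and 26.1 FPKM in wild-type cells (1.82-fold, Cuffdiff q = 0.0016), and Dbf4 at 35.1 FPKM in Hdac3-deleted and 52.9 FPKM in wild-type cells (q = 0.0272). The fork protection partners Timeless and Tipin fell to 13.2 and 72.6 FPKM in Hdac3-deleted cells, against 20.97 and 124.5 FPKM in wild-type cells (q = 0.0122 for Timeless and q = 0.0016 for Tipin). Dscc1 and Chtf18, subunits of an alternative clamp loader that works in sister chromatid cohesion, fell by 1.85-fold (q = 0.00756) and 1.59-fold (q = 0.0193), and Chtf18 shares its locus with Gng13. Rnaseh2b, a subunit of the nuclease that removes ribonucleotides from DNA, was at 28.3 FPKM in Hdac3-deleted and 50.9 FPKM in wild-type cells (q = 0.0016). The histone chaperone gene Nasp was at 71.3 FPKM in Hdac3-deleted and 117.1 FPKM in wild-type cells (q = 0.00855), and Cad, the first enzyme of pyrimidine synthesis, fell by 1.57-fold (q = 0.0139).

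The 4 further genes with the highest mean of the 2 genotypes were not called. Top2a, the topoisomerase that untangles copied chromosomes, was at 288 FPKM in Hdac3-deleted and 302 FPKM in wild-type cells (q = 0.956). Dck, the deoxycytidine salvage kinase, was at 226 FPKM in Hdac3-deleted and 167 FPKM in wild-type cells, the highest log2 fold change of the 46 at 0.44 (q = 0.264). Uhrf1, which guides DNA methylation to copied DNA, was at 133 FPKM in Hdac3-deleted and 172 FPKM in wild-type cells (q = 0.378). Rbbp4, a histone-binding subunit of the chromatin assembly factor, was at 108 FPKM in Hdac3-deleted and 124 FPKM in wild-type cells.

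Mitosis genes and E2F genes were read in the same samples. Of 22 mitosis genes 7, or 31.8%, were called lower and none higher, against 4.14% and 2.81% of all tested entries. The median log2 fold change of the 22 was -0.42. Nek2 and Ccnb2 were called with log2 fold changes of -1.15 and -0.95, past the range of the 10 called replication genes, while Mki67, a marker of cycling cells, was at 168 FPKM in Hdac3-deleted and 175 FPKM in wild-type cells (q = 0.969). Whether the mitosis genes differ from the replication genes in fold change was not tested. None of 13 genes of the E2F and pocket protein family was called. Of these 13, 4 had an unadjusted Cuffdiff p under 0.05, as had 2170 of the 12683 tested entries. The median log2 fold change of the 13 was -0.33. Tfdp1, the DNA-binding partner of E2F, had the highest mean of the 2 genotypes, at 120.2 FPKM in Hdac3-deleted and 131.2 FPKM in wild-type cells, and E2f4, a mostly repressive E2F, had the next highest mean, at 64.5 FPKM in Hdac3-deleted and 67.3 FPKM in wild-type cells. E2f2, an activating E2F, was above E2f4 in wild-type cells, with 51.97 FPKM in Hdac3-deleted and 72.5 FPKM in wild-type cells (q = 0.184).

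The 52 genes lie on 15 chromosomes, and 10 of them, among them the called Rfc3 and Rfc5, lie on chromosome 5. That is 19.2% of the 52, against 6.27% of all tested entries. In the GENCODE annotation, exons of 15 of the 52 genes overlap those of another protein-coding gene, including the called Rfc5 and Pole2. Rfc5 overlaps Wsb2 on the opposite strand, which was at 13.3 FPKM in Hdac3-deleted and 14.1 FPKM in wild-type cells. Processed pseudogenes at least 95% identical over at least 200 bases exist for Rfc5 and Rrm2 among the called genes and for Cdc6, Mcm7, Pcna and Slbp among the others, and stretches of Tyms match several unrelated transcripts to the same degree. The sources used here do not say how the authors' counting divided fragments between such copies or whether it used strand, so these values are less certain.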

How the data were processed

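Polyadenylated RNA was measured in 4 libraries, 2 per genotype, and the genotype label set each sample's group. The labels name Trizol extraction and an Illumina TruSeq kit. Per the submitters' processing notes, Trimmomatic 0.32, TopHat2 2.0.11, Cuffdiff 2.1.1 and the mm10 build were used; options, annotation and scaling were not stated. The deposited table gives 1 FPKM value per gene and genotype, the authors' Cuffdiff test statistic (a score), p-value and q-value. The authors' q-value is adjusted over all tested entries. Library depth is unknown.

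From these FPKM values, log2 fold changes were taken with no pseudocount or filter. A gene was called at a q under 0.05. The labels name separate pools, and nothing else says that they were independent. The code that counts calls and adjusts p-values in the alternatives was tested on simulated data. The 52 genes and the other lists were chosen with earlier results of these data known. The naming rule took all 52 genes, up to 8 called further replication genes by smallest q and then fold, the 4 of these with the highest mean, and up to 2 of each other list. Dbf4, Mki67 and E2f2 lie outside it and were chosen after their values were seen. S100a8 also lies outside it, since Lyz2 had the same q and a larger fold (4.14 against 4.11). Promoter windows are printed for called genes with an E2F-like match and for Mcm6, chosen after its matches were seen. Gene positions follow the table, counted from 1. Copies were sought with megablast. Versions were Python 3.11.15, pandas 2.3.3, numpy 2.4.6, matplotlib 3.10.9 and scipy 1.17.1. The closing section gives the alternatives.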

Additional observations from a re-analysis of the deposited data

How the results depend on the processing

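The median of the 52 genes was negative under every alternative that changes it, and 0 of the 52 were called higher under each of the 8 alternatives in which calls were counted. At a q under 0.01 the 10 lower calls became 4 (Mcm10, Rfc5, Pole2 and Rfc3), and the further replication genes gave 5 calls, with 2.72% of all tested entries called lower. A normal p of the authors' test statistic gave 3 calls (Rpa3, Gmnn and Pole2) and 3 further genes, and 335 lower calls over all tested entries, or 2.64%. At a q under 0.10 there were 14 and 10 calls, with 5.31% of all tested entries called lower. A minimum of 1.5-fold and a minimum of 1 FPKM left 10 and 9 calls. Centring on the median entry (a shift of 0.02) and rescaling to equal totals (a shift of 0.04) also gave 10 and 9. Both shifts kept the authors' q-values and could change a call only by turning its sign, so these unchanged counts are no check of the calls. Over all entries tested, 4.07% were called lower with the minimum fold and 3.43% with the minimum FPKM. With centring and with rescaling it was 4.14%. Without entries that share a locus, 10 of 42 genes and 8 further genes were called, with 4.69% of the entries left called lower. The median of the 52 genes ran from -0.42 with centring to -0.35 with rescaling, and 51 genes stayed lower under both. With entries that share a locus left out, 3 of 13 group medians moved by at least 0.1. The causes were not tested. No paired analysis was possible because the table holds 1 value per genotype, and for the same reason no library could be left out.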
